A study of Homo sapiens with 4 samples.

Results

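The proteasome subunit genes described here are the protein-coding genes of the hg19 GENCODE annotation whose symbol is PSMA, PSMB, PSMC, PSMD, PSME or PSMG followed by a number. There were 49 of them among 20090 protein-coding genes on chromosomes 1 to 22 and X. The rule used symbols and no measured value, and the gene set itself was picked with earlier results of these data known. The set held 40 constitutive subunits, activators and assembly chaperones, and 5 immune subunits (PSMB8, PSMB9, PSMB10, PSME1 and PSME2). It also held 2 subunits known from single tissues (PSMA8 in testis and PSMB11 in thymus) and 2 namesakes that are named for a partner and are not subunits (PSMC3IP and PSME3IP1).

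The study mapped FLI1, SSRP1 and the acetylated histone mark H3K27ac by chromatin immunoprecipitation and sequencing in cultured cells of the established Ewing sarcoma line SK-N-MC. All libraries came from untreated cells of this 1 line, with 1 library per target and an input library as control. Chromatin was digested with micrococcal nuclease and sonicated before precipitation. The line carries the EWSR1::FLI1 fusion, and the labels do not say whether the FLI1 antibody separates the fusion from FLI1 itself.

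The proteasome degrades proteins that carry ubiquitin. Its core particle is a barrel of alpha rings, which gate the entrance, around beta rings, which hold the cutting sites. Regulatory particles with ATPases, or simpler activators, cap the barrel and feed it. In cells exposed to interferon, immune beta subunits replace the constitutive catalytic subunits and change the peptides passed to antigen presentation. FLI1 is an ETS factor that binds GGAA within longer motifs, and the Ewing fusion is also known for binding runs of GGAA repeats. SSRP1 is a subunit of FACT, which handles histones as polymerases pass through chromatin, and H3K27ac marks active promoters and enhancers.

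The peak lists held 36305 FLI1, 19855 SSRP1 and 37195 H3K27ac intervals, with median widths of 283, 403 and 653 bp. They gave no height, read count or depth, so each value below is the presence, place or width of a peak. With 1 library per target there was no replicate check, and no difference was tested. The 95% intervals on shares are exact Clopper-Pearson intervals that cover counting over genes or peaks only. As a check of the label, all 6 Ewing sarcoma markers listed (NR0B1, NKX2-2, CCND1, PRKCB, STEAP1 and CD99) had H3K27ac at a start site, and 0 of 8 markers of blood, liver, epithelial, endothelial and muscle cells had it.

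The following promoter sequences are shown because they carry the motif that went with FLI1 at these genes, or a motif found at most immune subunits. Each is hg19 sequence read 5′ to 3′ on the gene's own strand, ending at or near the transcription start site (TSS). Capitals mark the motif. These 7 genes had the ETS core (CCGGAAG or CCGGAAA, either strand) and a FLI1 peak within 250 bp of the canonical TSS.
PSMB1: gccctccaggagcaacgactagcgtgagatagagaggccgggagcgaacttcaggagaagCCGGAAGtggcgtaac
PSMD2: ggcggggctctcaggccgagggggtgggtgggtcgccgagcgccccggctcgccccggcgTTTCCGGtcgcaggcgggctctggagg
PSMD6: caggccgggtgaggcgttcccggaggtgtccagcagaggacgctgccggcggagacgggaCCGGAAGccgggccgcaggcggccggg
PSMD9: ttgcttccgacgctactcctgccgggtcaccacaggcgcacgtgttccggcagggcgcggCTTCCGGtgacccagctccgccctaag
PSMD13: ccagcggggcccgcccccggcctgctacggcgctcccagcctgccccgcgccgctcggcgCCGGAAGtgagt
PSMD14: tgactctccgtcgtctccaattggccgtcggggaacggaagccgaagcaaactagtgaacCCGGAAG
PSMG3: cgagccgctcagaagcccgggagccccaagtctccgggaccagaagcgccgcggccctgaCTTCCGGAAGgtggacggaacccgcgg

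The PSMB1 stretch lies at chr6:170862396-170862471 on the minus strand, that of PSMD2 at chr3:184016874-184016960 on the plus strand, and that of PSMD6 at chr3:64009181-64009267 on the minus strand. Those of PSMD9 (chr12:122326527-122326613), PSMD13 (chr11:236904-236975) and PSMD14 (chr2:162164872-162164938) are on the plus strand, and that of PSMG3 (chr7:1609701-1609787) is on the minus strand. In PSMG3 the ETS core stands on both strands, with its letters overlapping.

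Several members had the same core and no FLI1 peak within 2.5 kb of a TSS, and PSMC6 and PSMD7 are shown. PSMD7 lies where FLI1 peaks are sparse, with 1.3 per Mb within 5 Mb.
PSMC6: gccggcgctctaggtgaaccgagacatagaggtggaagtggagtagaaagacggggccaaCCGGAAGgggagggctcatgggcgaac
PSMD7: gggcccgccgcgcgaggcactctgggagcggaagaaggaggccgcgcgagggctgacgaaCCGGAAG

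They lie at chr14:53173751-53173837 and chr16:74330650-74330716, both on the plus strand.

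These 2 immune subunits had an interferon response element (GAAA, any 2 bases and GAAA again, either strand) beside the TSS, and PSMB5, a constitutive catalytic subunit, had an antioxidant response element (TGACNNNGC or TGAGNNNGC, either strand), the site of NFE2L1 and NFE2L2.
PSMB8: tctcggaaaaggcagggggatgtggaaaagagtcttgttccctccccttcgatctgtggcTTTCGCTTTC
PSMB10: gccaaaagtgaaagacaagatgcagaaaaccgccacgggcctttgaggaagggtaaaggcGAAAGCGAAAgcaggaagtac
PSMB5: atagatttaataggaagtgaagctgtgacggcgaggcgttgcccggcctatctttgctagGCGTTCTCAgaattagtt

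They lie at chr6:32811819-32811888, chr16:67970754-67970834 and chr14:23504110-23504187, all on the minus strand.

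Nearly every proteasome gene was acetylated at its start. H3K27ac lay within 2.5 kb of a TSS at 46 of 49 members (93.9%, interval 83.1 to 98.7), against 57.9% of all protein-coding genes. FLI1 did so at 21 (42.9%, 28.8 to 57.8), against 29.0% of all genes. SSRP1 did so at 18 (36.7%, 23.4 to 51.7), against 35.8%. All 3 were present at 10 members (20.4%, 10.2 to 34.3), against 17.3%.

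Since active promoters carry more peaks of every kind, the members were also set beside genes with H3K27ac at a TSS. Of the 46 acetylated members 21 had FLI1, and 42.1% of all acetylated genes had it. SSRP1 was found at 18 of those 46 (39.1%, 25.1 to 54.6), and 54.7% of all acetylated genes had it. So against acetylated genes the members stood level for FLI1 within 2.5 kb and below the general share for SSRP1. The SSRP1 interval ends only just below that share, and the difference was not tested.

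The members fell into 5 combinations of marks. Only all 3 targets together were counted over all genes (17.3%) and acetylated genes (30.0%), so the other counts are a description. H3K27ac stood alone at 17, among them PSMA2, PSMA6, PSMB4, PSMB5, PSMB6, 4 of the 6 base ATPases (PSMC1, PSMC4, PSMC5 and PSMC6) and both namesakes. FLI1 with H3K27ac marked 11 members: PSMA3, PSMB1, PSMB2, PSMB7, PSMC2, PSMC3, PSMD4, PSMD6, PSMD8, PSMD12 and PSME3. All 3 targets marked PSMA5, PSMB3, PSMD2, PSMD9, PSMD13, PSMD14, PSMG3, PSMG4, PSME2 and PSME4. SSRP1 with H3K27ac marked 8 members: PSMA1, PSMA4, PSMA7, PSMB9, PSMD3, PSMD10, PSMG1 and PSMG2. The 3 members with no peak were PSMB8, PSMA8 and PSMB11.

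**Figure D1:**
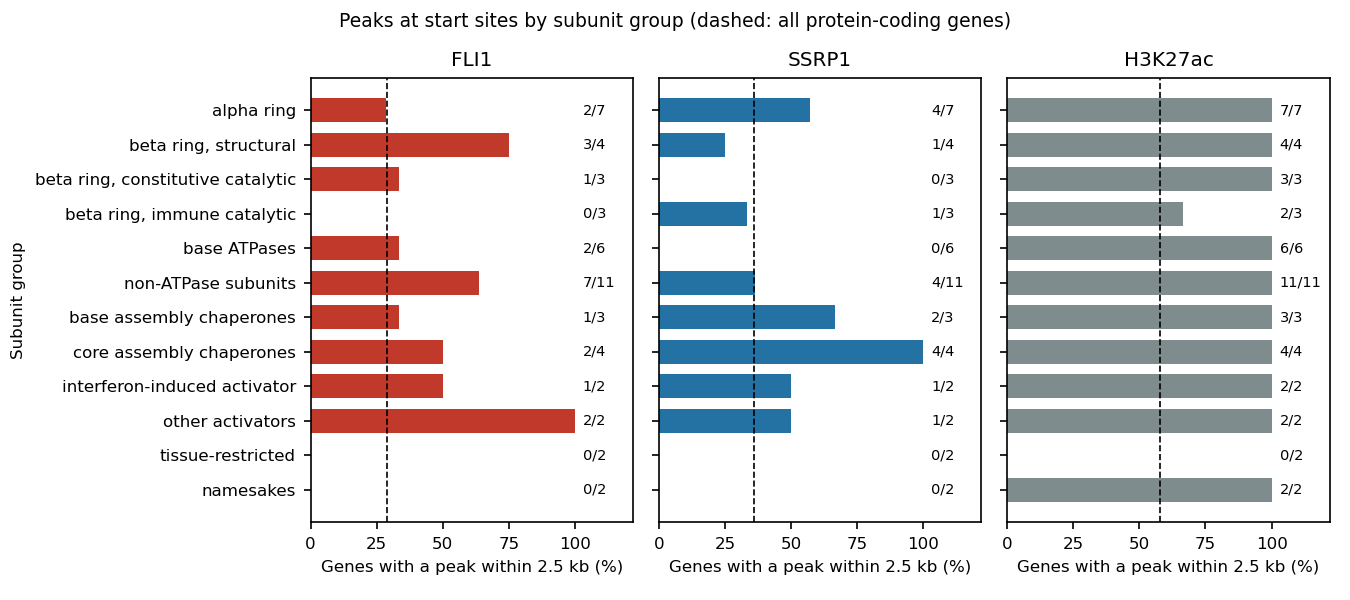
Share of genes with a FLI1, SSRP1 or H3K27ac peak within 2.5 kb of any TSS (x axis, percent), by subunit group (y axis), with the number of genes at the right of each bar and the share of all protein-coding genes as a dashed line. H3K27ac reached every member of each constitutive group. SSRP1 was at 0 of 6 base ATPases and 4 of 4 core assembly chaperones, at PSMG2 only by a distal start. Each of these groups is small.

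In the core particle, the alpha ring genes, which form the outer rings and the gate, all had H3K27ac (7 of 7), with FLI1 at 2 and SSRP1 at 4. FLI1 at PSMA3 covered 227 bp from 62 to 288 bp downstream of the canonical TSS. At PSMA5 the factors stood on opposite sides of the start. FLI1 covered -547 to -142 bp (negative values are upstream), and SSRP1 covered 110 to 466 bp. SSRP1 at PSMA4 was 595 bp wide and lay from 92 to 686 bp downstream. PSMA7 had SSRP1 from 31 to 312 bp and again from -901 to -620 bp, the latter nearer to the TSS of its opposite-strand neighbour SS18L1. PSMA7 also had the widest H3K27ac peak of any member, 2907 bp. PSMA1 had SSRP1 only at an alternative start far upstream of the canonical TSS, at -123764 to -123330 bp, a stretch that also holds the TSS of PDE3B. PSMA2 and PSMA6 had H3K27ac only.

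The structural beta subunits PSMB1, PSMB2, PSMB3 and PSMB4 form the inner rings without a cutting site. FLI1 was found at 3 of these 4, but over the start only at PSMB1, where it covered -61 to 233 bp. At PSMB2 the FLI1 peak lay 2202 to 2473 bp downstream and overlapped no H3K27ac peak. At PSMB3 it lay -2149 to -1822 bp from the TSS, away from an SSRP1 peak at -874 to -157 bp that was the widest SSRP1 peak of any member (718 bp). PSMB4 had a single H3K27ac peak and neither factor.

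The 3 constitutive catalytic subunits cut after different residues, and each has an immune counterpart. PSMB5, the chymotrypsin-like subunit, had H3K27ac from -801 to 1075 bp and from -1822 to -1014 bp, with no FLI1 or SSRP1. PSMB6, the caspase-like subunit, had H3K27ac from -87 to 544 bp and neither factor. PSMB7, the trypsin-like subunit, had FLI1 over the TSS (-21 to 271 bp) within H3K27ac (-105 to 825 bp). Thus H3K27ac covered all 3 starts, FLI1 was at 1 and SSRP1 at none.

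The immune counterparts differed among themselves. PSMB8, which replaces PSMB5, had no peak of any kind within 2.5 kb of its 3 annotated starts. PSMB9, which replaces PSMB6, had SSRP1 over its TSS (-113 to 383 bp) with no H3K27ac there. A further SSRP1 peak (-1022 to -518 bp) and the only H3K27ac peak in its window (-837 to -481 bp) lay by the TSS of TAP1, a peptide transporter gene on the opposite strand whose start is 488 bp upstream. That H3K27ac cover of 357 bp was the least of any acetylated member. PSMB10, which replaces PSMB7, had H3K27ac from 73 to 934 bp and neither factor.

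**Figure D2:**
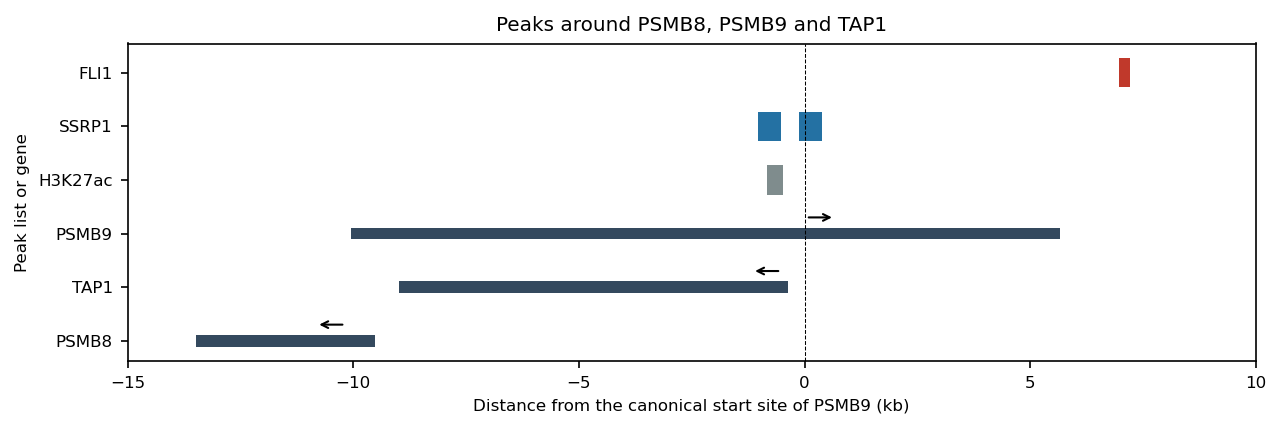
Peaks (upper 3 rows) and gene bodies (lower 3 rows, with arrows at the canonical start sites pointing in the direction of transcription) by distance in kb from the canonical TSS of PSMB9. The H3K27ac peak sits at the TAP1 start, an SSRP1 peak covers the PSMB9 start, and no peak lies by the PSMB8 start. The PSMB9 gene body reaches left of 0 because of a distal annotated start.

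PSME1 and PSME2 encode the subunits of an interferon-induced activator. PSME1 had H3K27ac from -396 to 512 bp alone. PSME2 had FLI1 from -701 to -378 bp, SSRP1 from -535 to -52 bp and H3K27ac from -1910 to 313 bp. That FLI1 peak was 187 bp from the TSS of RNF31, a neighbour on the opposite strand, and 378 bp from the canonical TSS of PSME2. Counted over the 5 immune genes, H3K27ac was at 4 (80.0%, 28.4 to 99.5), FLI1 at 1 (20.0%, 0.505 to 71.6) and SSRP1 at 2 (40%, 5.27 to 85.3). In the 40 constitutive genes H3K27ac was at 40 (100%, 91.2 to 100), FLI1 at 20 (50.0%, 33.8 to 66.2) and SSRP1 at 16 (40%, 24.9 to 56.7). The intervals of the immune genes contain the constitutive shares for FLI1 and SSRP1, so at 5 genes no difference was detectable.

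In the regulatory particle, the 6 base ATPases PSMC1 to PSMC6 unfold substrates and thread them into the core. All 6 had H3K27ac, 2 had FLI1 and none had SSRP1 (0%, 0 to 45.9). SSRP1 was at a TSS of 35.8% of all genes, a share that this interval contains. FLI1 at PSMC2 lay from 0 to 326 bp, and a further FLI1 peak covered an alternative start -3429 to -3062 bp away, 186 bp from the TSS of DNAJC2. FLI1 at PSMC3 covered -78 to 211 bp. PSMC4 had an H3K27ac peak of 2322 bp, the next widest among members after that of PSMA7.

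The 11 non-ATPase subunits include scaffold, ubiquitin-receptor and deubiquitinase subunits. All 11 had H3K27ac, 7 had FLI1 (63.6%, 30.8 to 89.1) and 4 had SSRP1 (36.4%, 10.9 to 69.2). FLI1 was at 29.0% of all genes and 42.1% of acetylated genes, and SSRP1 at 35.8% and 54.7%. Both intervals contain the share of acetylated genes. FLI1 covered the canonical TSS at all 7: PSMD2 (-267 to 65 bp), PSMD4 (-156 to 249 bp), PSMD6 (-189 to 37 bp), PSMD8 (-112 to 244 bp), PSMD12 (-33 to 214 bp), PSMD13 (-267 to 34 bp) and PSMD14 (-280 to 90 bp). PSMD2 is the large base scaffold, PSMD4 a ubiquitin receptor and PSMD14 the deubiquitinase that strips ubiquitin from substrates. SSRP1 overlapped the FLI1 peak at PSMD2 (-54 to 302 bp), PSMD13 (-404 to -13 bp) and PSMD14 (-263 to 41 bp). PSMD13 had a further SSRP1 peak (-919 to -594 bp) over the TSS of SIRT3, its opposite-strand neighbour. PSMD3 had SSRP1 without FLI1, in a 693 bp peak from -6 to 686 bp. PSMD1, PSMD7 and PSMD11 had H3K27ac alone.

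The assembly chaperones hold subunits together while the particle is built and are absent from the finished particle. SSRP1 was found at all 4 chaperones of the core (PSMG1 to PSMG4) and at 2 of the 3 of the base (PSMD9 and PSMD10, not PSMD5). SSRP1 was at 35.8% of all genes and 54.7% of acetylated genes. The intervals (39.8 to 100 for the core, 9.43 to 99.2 for the base) both contain the share of acetylated genes. FLI1 and SSRP1 overlapped at PSMG3 (FLI1 -284 to 229 bp, SSRP1 24 to 382 bp), PSMG4 (-242 to 94 bp and -271 to 134 bp) and PSMD9 (-176 to 250 bp and -65 to 252 bp). SSRP1 at PSMG1 lay upstream, from -583 to -238 bp. At PSMG2 the SSRP1 peak was by a distal alternative start (-45678 to -45188 bp) 253 bp from the TSS of SPIRE1, and none was in the canonical window. At PSMD10 the peak (-601 to -320 bp) was nearer to the start of ATG4A than to its own. PSMG4 had a further FLI1 and SSRP1 pair at a distal start (-27602 to -27293 bp and -27692 to -27364 bp) with no H3K27ac overlap.

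The other activators were PSME3, which caps the core in the nucleus, and PSME4, a large single-chain cap. FLI1 covered the PSME3 start from -266 to 248 bp, and this 515 bp peak was the widest FLI1 peak at any member. PSME3 had a further FLI1 peak over the TSS of BECN1, at an alternative start (-9220 to -8970 bp). PSME4 had overlapping FLI1 (-389 to -117 bp) and SSRP1 (-463 to -182 bp) on the side of its opposite-strand neighbour ACYP2, whose TSS the FLI1 peak covers.

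**Figure D3:**
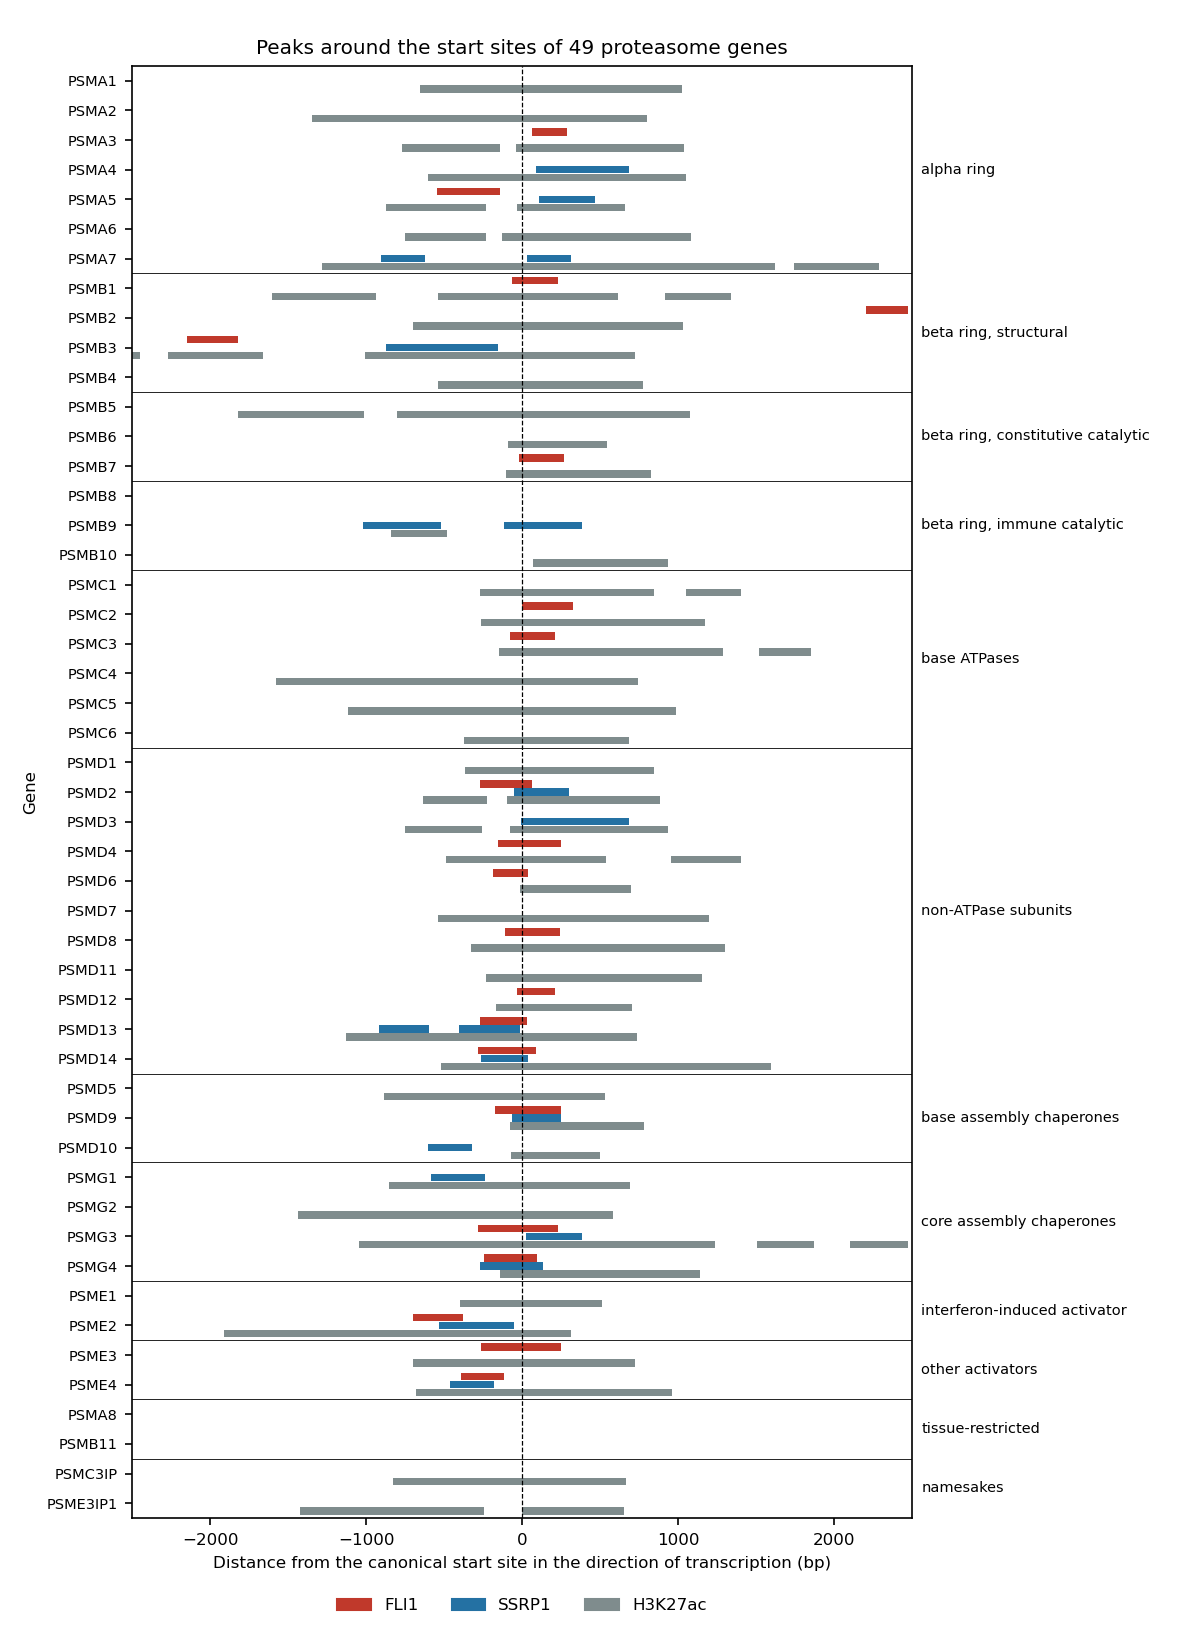
Peaks of FLI1 (red), SSRP1 (blue) and H3K27ac (grey) at each of the 49 genes (y axis, by subunit group), by distance in bp from the canonical TSS in the direction of transcription (x axis). FLI1 peaks stack over the start at 15 genes, and PSMB8, PSMA8 and PSMB11 have no peak in the window. Peaks at alternative starts outside the window are not drawn.

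FLI1 sat closer to the start of these genes than at genes in general. Of the 21 members with FLI1 in the window of the canonical TSS, the peak covered the TSS at 15 (71.4%), against 37.1% of 5296 genes. Among genes with FLI1 in the window, this share was not counted for acetylated genes alone. A FLI1 peak within 250 bp of the canonical TSS was present at 18 members (36.7%, 23.4 to 51.7), against 16.5% of all genes and 26.1% of acetylated genes. The interval lies above the share of all genes and contains that of acetylated genes. Mitochondrial ribosomal protein genes had a similar share (34.6%), and cytoplasmic ones had 22.8%. The largest share covered was at the TSS itself, where FLI1 covered 32.6% of the 46 acetylated members and 15.9% of the 11521 other acetylated genes.

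For SSRP1 near the start, the member interval contained the share of genes in general and that of acetylated genes. SSRP1 within 250 bp was found at 15 (30.6%, 18.3 to 45.4), against 26.3% of all genes and 41.3% of acetylated genes. Of the 16 members with SSRP1 in the window of the canonical TSS, it covered the TSS at 6 (37.5%), against 41.8% of 6832 genes. The 6 were PSMB9, PSMD2, PSMD3, PSMD9, PSMD14 and PSMG4. SSRP1 cover over the acetylated members was highest from 100 to 250 bp downstream, at 17.4%. Over the other acetylated genes it was highest 200 bp downstream, at 32.2%. The midpoint nearest the TSS lay downstream at 8 of 16 members and at 4452 of 6832 genes.

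**Figure D4:**
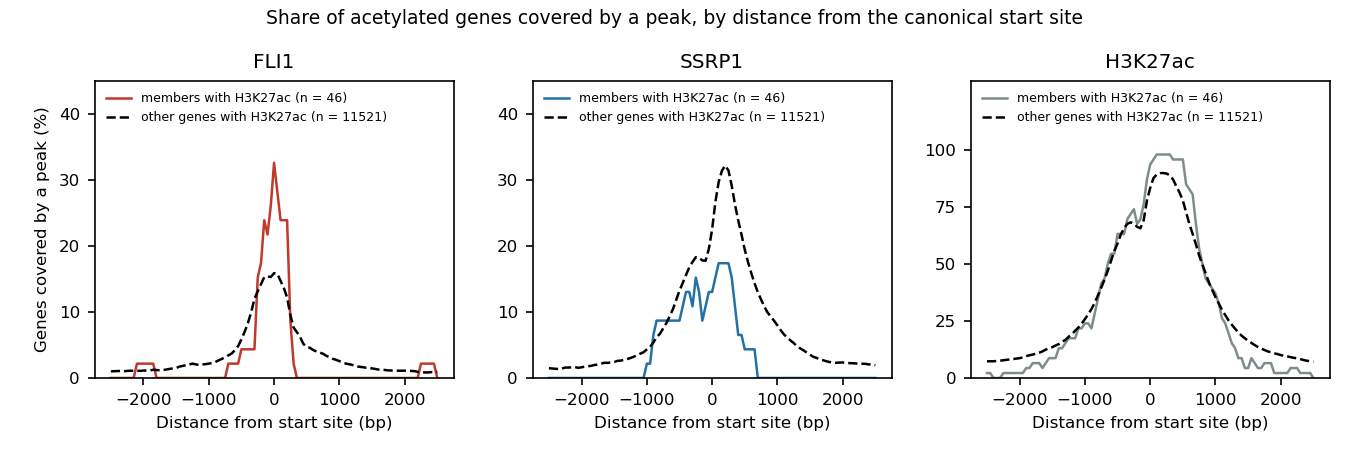
Share of acetylated genes covered by a FLI1, SSRP1 or H3K27ac peak (y axis, percent) by distance from the canonical TSS (x axis, bp, in the direction of transcription), for the 46 acetylated members (solid) and the 11521 other acetylated genes (dashed). At the start FLI1 covers 32.6% of members and 15.9% of other genes, and SSRP1 at members stays at or below 17.4% where other genes reach 32.2%.

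The breadth of acetylation at the members was close to that of other acetylated genes. Members with H3K27ac had a median cover of 1524 bp of the canonical window (range 357 bp at PSMB9 to 3452 bp at PSMA7). The median was 1506 bp over the 11293 genes with H3K27ac in that window. Those genes were cut into 4 groups of near-equal size by this cover. In the groups FLI1 and SSRP1 were counted in the canonical window only, not at any TSS. From the narrowest to the broadest group, SSRP1 was at 33.7%, 45.4%, 57.5% and 77.4% of all genes. In the same groups it was at 3 of 9, 3 of 13, 6 of 17 and 4 of 7 members. FLI1 was at 24.6%, 36.2%, 42.5% and 55.9% of all genes, and at 4 of 9, 6 of 13, 7 of 17 and 4 of 7 members. Each group holds few members, so these counts are a description.

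The ETS core, a motif also picked with earlier results known, went with FLI1 at the proteasome promoters. In the 300 bases from 250 before to 50 after the canonical TSS, the core was present at 23 of 49 members (46.9%, 32.5 to 61.7). It was present in 18.2% of all genes and 26.4% of acetylated genes. Mitochondrial and cytoplasmic ribosomal protein genes had it at 47.4% and 51.9%, so a share of this size was not particular to the proteasome. FLI1 lay within 250 bp of the TSS at 15 of the 23 members with the core (65.2%, 42.7 to 83.6). It did so at 3 of the 26 without it (11.5%, 2.45 to 30.2). Those intervals do not overlap. Over all genes the shares were 35.0% with the core and 12.4% without, and over acetylated genes 40.3% and 21%.

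The 15 members with both were PSMB1, PSMB7, PSMC2, PSMC3, PSMD2, PSMD6, PSMD8, PSMD9, PSMD12, PSMD13, PSMD14, PSMG3, PSMG4, PSME3 and PSME4. At most the core was inside the peak, as at -16 bp in PSMB1 and -4 bp in PSMD14. At PSMB7 (-46 to -40 bp) and PSMC3 (-158 to -152 bp) it lay wholly upstream of the peak, which began at -21 and -78 bp. The 3 with FLI1 and no core in the stretch were PSMA3, PSMA5 and PSMD4, and the PSMA5 peak held a core further upstream, at -350 bp. The 8 with a core and no FLI1 near were PSMA6, PSMC1, PSMC6, PSMD7, PSMD11, the testis subunit PSMA8 and both namesakes. In PSMD7 the core stood across the start site, at -2 bp, the same place as in PSMD14 to within a few bases. PSMD7 lies in a stretch where FLI1 peaks are sparse.

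SSRP1 showed no such split. It lay within 250 bp at 7 of the 23 members with the core (30.4%, 13.2 to 52.9) and at 8 of the 26 without (30.8%, 14.3 to 51.8). The ribosomal protein genes, other housekeeping sets with many ETS cores, were counted the same way. With the core, FLI1 was near at 20 of 37 mitochondrial (54.1%, 36.9 to 70.5) and 12 of 41 cytoplasmic ribosomal protein genes (29.3%, 16.1 to 45.5). Without it, FLI1 was near at 7 of 41 (17.1%, 7.15 to 32.1) and 6 of 38 (15.8%, 6.02 to 31.3). For genes with the core, the mitochondrial share lies within the member interval and the cytoplasmic share lies below it, and these differences were not tested.

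**Figure D5:**
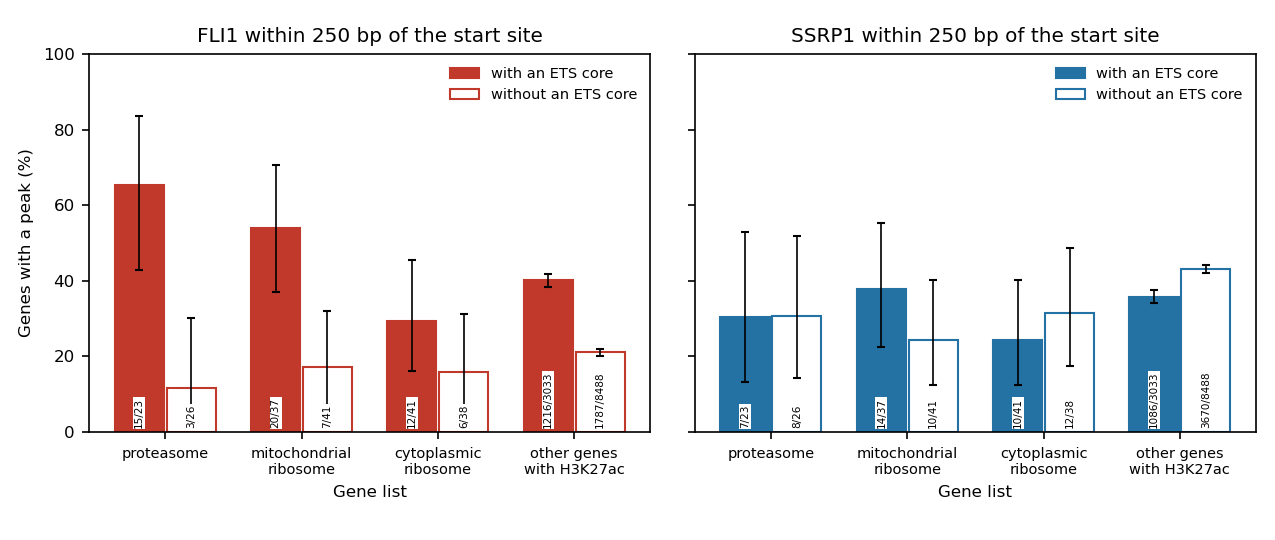
Share of genes (y axis, percent) with FLI1 (left) or SSRP1 (right) within 250 bp of the canonical TSS, for genes with (filled) and without (open) an ETS core in the promoter stretch. Bars give the share, lines the 95% Clopper-Pearson interval and figures in the bars the counts. For FLI1 the proteasome genes with the core stand at 65.2% and those without at 11.5%, and for SSRP1 at 30.4% and 30.8%.

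Most FLI1 peaks at member starts held an ETS core, and none held a GGAA repeat. There were 24 of these peaks, 227 to 515 bp wide with a median of 325.5 bp. An ETS core was in 16 (66.7%, 44.7 to 84.4), against 24.8% of 6616 FLI1 peaks at any gene's start. The longest run of GGAA in any of the 24 was 1 copy, where a repeat was counted from 4. Repeats were not counted in FLI1 peaks at other genes, so their absence here is a description only. H3K27ac shared 22 of the 24 (91.7%, 73.0 to 99.0), against 70.6% at any gene. SSRP1 shared 9 (37.5%, 18.8 to 59.4), against 44.7%, with shared meaning an overlap of at least 20% of either peak. The 22 SSRP1 peaks at member starts had a median width of 358 bp, against 455 bp at any gene, and 19 of them shared H3K27ac.

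The promoters of the immune subunits were searched for the same motifs. The interferon response element was in the stretch of 4 of 5 immune genes (80.0%, 28.4 to 99.5), PSMB8 (at -4 bp), PSMB10 (-21 bp), PSME1 (5 bp) and PSME2 (-28 bp), and not in that of PSMB9. It was in 2 of the 40 constitutive genes, PSMB4 and PSMG4, and in 3.30% of all genes. The ETS core was in 0 of the 5 immune genes (0%, 0 to 52.2), 20 of the 40 constitutive genes (50.0%) and 18.2% of all genes. At 5 genes no difference in the ETS core was detectable. The antioxidant response element was in 22 of 49 members (44.9%, 30.7 to 59.8), against 31.0% of all genes, and stood at nearly the same distance from the TSS in PSMB5 (-18 bp) and PSMB6 (-19 bp). CCAAT was in 22 members (44.9%), against 36.0% of all genes, and the NRF1 site (GCGCA, any base and GCGC) in 5 (10.2%), against 8.45%. No ETS core match at a member overlapped another motif. No member promoter held a run of 4 GGAA, and only 5 of 19801 promoters of all genes held one. A match is a run of letters, not a measured site.

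Within the gene bodies, beyond 2.5 kb of any start, fewer of the members than of genes in general had a peak, and the density of peaks was close. Of the 45 members that reach that far, FLI1 was found in 9 (20.0%, 9.58 to 34.6), against 35.0% of genes. SSRP1 was in 5 (11.1%, 3.71 to 24.1), against 20.3%, and H3K27ac in 7 (15.6%, 6.49 to 29.5), against 24.3%. The SSRP1 and H3K27ac intervals contain the shares of genes in general, and the FLI1 interval ends only just below its share. These shares depend on gene length. Per Mb of gene body the members had 11.8 FLI1, 5.91 SSRP1 and 10.1 H3K27ac peaks, and all genes had 12.4, 5.96 and 11.4.

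PSMB7 had the only site in a member's body with all 3 targets. In an intron, FLI1 (chr9:127154519-127154928, 410 bp) lay within SSRP1 (chr9:127154391-127154933, 543 bp) and H3K27ac (chr9:127154181-127155545, 1365 bp), about 23 kb from the start (22793 to 23202 bp for FLI1). That FLI1 peak held 1 ETS core and at most 2 GGAA copies in a row. The other SSRP1 peaks in member bodies overlapped neither FLI1 nor H3K27ac. They lay in exons of PSMC3 (5596 to 5877 and 7215 to 7530 bp, close to the gene end at 7670 bp) and PSMD2 (4507 to 5047 bp), and in introns of PSMA7 (5324 to 5812 bp) and PSMG4 (25742 to 26024 and 28657 to 28938 bp). At PSMD9 a FLI1 peak with an ETS core and an H3K27ac peak lay across the end of the gene, at 29320 to 29879 bp and 29022 to 30268 bp.

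The genes that work with the proteasome shared its acetylation. Of 25 partners and regulators, all 25 had H3K27ac, 13 had SSRP1 (52.0%, 31.3 to 72.2) and 5 had FLI1 (20.0%, 6.83 to 40.7). Over all genes the shares were 57.9%, 35.8% and 29.0%, and among acetylated genes 54.7% had SSRP1 and 42.1% had FLI1. The SSRP1 share was thus near that of acetylated genes. The FLI1 interval contains the share of all genes and ends below that of acetylated genes, and this difference was not tested. Those with FLI1 included PSMF1 (an inhibitor), POMP (the core assembly factor), NFE2L2 and UBA1, a ubiquitin-activating enzyme. NFE2L1, the factor that raises proteasome genes when the proteasome is blocked, had SSRP1 and H3K27ac without FLI1. POMP and PSMF1 had an ETS core and FLI1 near the start, while ADRM1 and PAAF1 had the core without FLI1.

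The antigen-presentation genes, which act on the peptides the proteasome makes, were mixed. Of 14, H3K27ac was at 9 (64.3%, 35.1 to 87.2), against 57.9% of all genes. SSRP1 was at 5 (35.7%), against 35.8%, and FLI1 at 3 (21.4%), against 29.0%. These shares were near those of all genes. TAPBP and IRF1 had all 3, and TAP1 and B2M had SSRP1 and H3K27ac. TAP2, HLA-E and ERAP1 had H3K27ac alone. HLA-B, HLA-C, ERAP2, NLRC5 and CIITA had no peak at a start.

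Some members lay where the counts may not speak for their own promoter. A neighbour on the opposite strand started within 1 kb of 10 members, and the peaks named above by SIRT3, TAP1, RNF31, ATG4A and ACYP2 could not be assigned to a single gene. Without the 12 members that start within 1 kb of any other gene, SSRP1 was at 9 of 37, and with the wider SSRP1 peaks only it was at 8 of 49. FLI1 and SSRP1 peaks were sparse over stretches of some chromosomes that hold 6 members (PSMB6, PSMB10, PSMD6, PSMD7, PSMD10 and PSME3IP1). Within 5 Mb of these 6, the FLI1 list held 0.4 to 3.4 peaks per Mb, where the median member had 15.4, and FLI1 was at 1 of them (PSMD6) and SSRP1 at 1 (PSMD10). At the other end, PSMD2 had the highest FLI1 density around it, 44 peaks per Mb. Without the 6 members in sparse stretches, FLI1 was at 20 of 43 and SSRP1 at 17 of 43.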

How the data were processed

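Per the series' design text and the submitters' processing notes, the authors used Bowtie2 on hg19 and then MACS2 (version 2.2.7.1) with the input as control and a q-value limit of 0.05, for 1 library per target, and listed HOMER and deepTools. Filters on duplicate or multi-mapping reads are not given in the sources used here. The deposited files hold peak starts and ends only. Duplicate lines for several summits of a peak were collapsed, and coordinates are 1-based.

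Genes and start sites came from GENCODE release 44 lifted to hg19. A peak was at a member when it overlapped 2.5 kb on either side of any basic transcript start. The canonical start is Ensembl's, present for 19801 genes, and is base 0 in all distances. Motifs were searched on both strands in the hg19 sequence. Functions were tested on simulated data. Python 3.11.15, pandas 2.3.3, pysam 0.24.0 and samtools 1.23.1 were used. The members (by a rule on symbols), lists and motifs were chosen with earlier results of these data known. All members may be named. Values are given in full for catalytic pairs, members without H3K27ac, members with FLI1, and SSRP1 in gene bodies. The input library was not analysed here, except through the authors' calls. Some genes of the related lists are counted and not reported here by name.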

Additional observations from a re-analysis of the deposited data

How the results depend on the processing

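Each of 20 results was recomputed under other windows, peak widths, overlaps and member sets, giving 89 values. Of these, 76 stayed within 1.5 times the reported count (or 1 SD, 626 bp, of the H3K27ac cover). Counts and not shares were compared, so a value could move because its member set was smaller. With the wider peaks of each list only, SSRP1 was at 8 of 49 members and 6 of 40 constitutive genes, all 3 targets at 3 members, and gene-body peaks at 3 members for each of FLI1, SSRP1 and H3K27ac. Without the 12 members beside another gene's start, some of them beside an unnamed overlapping gene, SSRP1 was at 9 of 37 members, 9 of 31 constitutive and 0 of 3 immune genes, all 3 targets at 6 of 37 members, and FLI1 at 0 and H3K27ac at 2 of 3 immune genes. H3K27ac beyond the start windows was at 19 of 49 members with a 1 kb window, which leaves more of each gene outside it. The 250 bp window and the promoter stretch were also varied, by choice after seeing the data. No paired analysis was possible because each target had 1 library. The files give no depth, so an absent peak does not show absence of the protein.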
